A study of Caenorhabditis elegans with 2 samples.

Results

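Regions at tRNA genes are the places where tagged ZTF-11 chromatin gave a summit of signal at or beside a gene for a transfer RNA. A region was counted here when its summit lay within 500 bp of a nuclear gene annotated as tRNA in Ensembl WBcel235, in the list the authors made from both replicates pooled. Of the 20201 nuclear regions in that list 196 met this rule, 96 on the X chromosome and 100 on the autosomes. They lay at 212 of the 612 nuclear tRNA genes, since 32 summits were within reach of more than 1 gene and 21 genes had more than 1 region. The chromatin came from whole L2 larvae of Caenorhabditis elegans, both sexes pooled, of strain OP236, with genotype unc-119(ed3) III and the insertion wgIs236, which makes ZTF-11 with GFP and FLAG at its C terminus. There was 1 group of 2 biological replicates, both called against the same control, and no second condition. Each region has 1 signal score set by the authors, with no stated unit, so scores are compared only within a list. The depth of each library is unknown, so all shares are over genes or regions and their p-values measure the spread over these, not over animals.

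A tRNA gene carries its own promoter. The factor TFIIIC binds an A box and a B box inside the gene and recruits RNA polymerase III, which stops at a run of T after the gene. ZTF-11 belongs to the MYT1 family of zinc finger factors, known for repressing genes during the formation of neurons. In the worm, tRNA genes are short, present in many near-identical copies, and often lie in introns of protein-coding genes or alone between genes.

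The genes beside some of the strongest regions are shown first, to show the internal promoter near which many summits lay. Each is read 5′ to 3′ along its own strand from the RefSeq sequence of WBcel235, which has the coordinates of ce11. Capitals mark a B box core of the form GTTCNANNC. C18A11.t2 encodes an arginine tRNA, F46G11.t2 a proline tRNA, R11.t1 a tyrosine tRNA and C05G6.t1 a valine tRNA.
C18A11.t2 (chrX:8036685-8036757, minus strand): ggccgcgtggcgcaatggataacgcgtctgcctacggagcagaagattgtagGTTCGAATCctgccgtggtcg
F46G11.t2 (chrX:5801211-5801282, minus strand): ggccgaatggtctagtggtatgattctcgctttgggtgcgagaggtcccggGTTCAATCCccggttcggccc
R11.t1 (chrX:16209769-16209852, minus strand): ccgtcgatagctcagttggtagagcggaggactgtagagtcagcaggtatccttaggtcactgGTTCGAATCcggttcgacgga
C05G6.t1 (chrIV:620482-620554, plus strand): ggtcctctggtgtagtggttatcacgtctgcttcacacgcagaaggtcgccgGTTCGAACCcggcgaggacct

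The sequence under a summit shows how some of the regions sit on or beside tRNA genes. Each line below gives the 50 bp on either side of a summit, in the direction of the nearest tRNA gene, with the bases of that gene in capitals. In C18A11.t2 the window holds no base of the gene, because the summit lay 268 bp downstream of it. In C04A11.t1 the summit lay 26 bp upstream of the gene. In the other 4 it lay inside the gene. Such summits are thus a larger part of these lines than of all 196 regions, where they made up 30.1%.
C18A11.t2 (chrX:8036367-8036467, minus strand): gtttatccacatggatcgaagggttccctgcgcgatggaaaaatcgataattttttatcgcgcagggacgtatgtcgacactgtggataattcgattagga
C04A11.t1 (chrX:13665479-13665579, plus strand): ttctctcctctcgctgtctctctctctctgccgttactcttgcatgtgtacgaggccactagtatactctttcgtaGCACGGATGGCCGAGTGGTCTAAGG
F46G11.t2 (chrX:5801199-5801299, minus strand): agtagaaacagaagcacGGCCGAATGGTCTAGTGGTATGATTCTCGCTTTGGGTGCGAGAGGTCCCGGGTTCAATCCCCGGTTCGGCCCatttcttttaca
R11.t1 (chrX:16209776-16209876, minus strand): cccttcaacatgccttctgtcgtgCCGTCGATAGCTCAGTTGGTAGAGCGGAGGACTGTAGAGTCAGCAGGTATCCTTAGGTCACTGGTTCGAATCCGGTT
F10C1.t1 (chrII:5782218-5782318, minus strand): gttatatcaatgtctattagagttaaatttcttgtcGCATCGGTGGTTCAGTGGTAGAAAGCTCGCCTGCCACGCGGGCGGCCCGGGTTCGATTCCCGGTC
C05G6.t1 (chrIV:620477-620577, plus strand): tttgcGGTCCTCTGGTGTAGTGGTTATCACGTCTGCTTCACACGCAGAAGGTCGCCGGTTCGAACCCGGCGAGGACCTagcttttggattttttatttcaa

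Summits gathered on the tRNA gene or close beside it. Of the 196 regions 59 (30.1%) had their summit inside the gene and 134 (68.4%) inside it or within 100 bp, although that stretch is 25.4% of the length of the window searched. Within these 100 bp, 47 summits lay upstream and 28 downstream, and the median summit was 17 bp after the 5′ end. Relative to the 5′ end, the middle 50% of the summits lay between positions -70.5 and 100.2 bp, negative being upstream. Beyond 100 bp were 62 regions. The members farthest from a gene were at 490 and 492 bp, with scores of 12.8, 11.8 and 11.3, and the nearest regions left out were at 508, 521 and 557 bp, with scores of 9.54, 9.18 and 9.22.

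**Figure D1:**
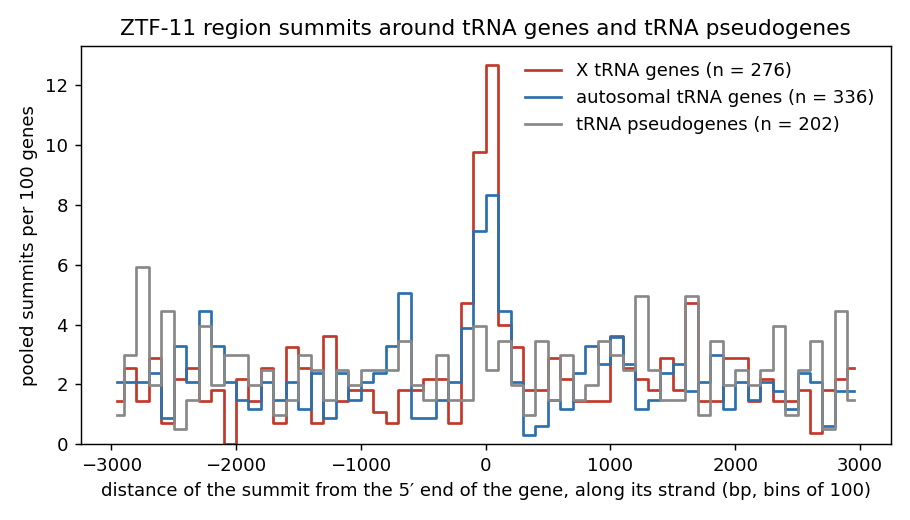
Pooled region summits per 100 genes in bins of 100 bp along the gene's strand, on both sides of the 5′ end, for X tRNA genes, autosomal tRNA genes and tRNA pseudogenes over 1000 bp from any tRNA gene. The first 100 bp from the 5′ end hold 12.7 summits per 100 genes on X, 8.33 on the autosomes and 2.48 at the pseudogenes. Other pseudogene bins vary, up to 5.94 beyond 1000 bp.

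Counted by gene, the peak of summits was several times the level around it. In the first 100 bp from the 5′ end there were 12.7 summits per 100 genes on X, from 35 summits at 276 genes. On the autosomes there were 8.33, from 28 summits at 336 genes. As the median tRNA gene is 72 bp long, this bin runs past the 3′ end of most genes. Beyond 1000 bp the mean was 2.02 per 100 genes on X and 2.02 on the autosomes, so the first bin stood 6.28 times and 4.13 times above it. No bin beyond 1000 bp passed 4.71 on X or 4.46 on the autosomes. Nearer to the gene, the autosomal bin centred at -650 bp held 5.06, from 17 summits. With as many regions taken from replicate 2 alone, the first bin held 6.16 on X and 5.95 on the autosomes, and with replicate 1 alone 9.06 on X and 8.33 on the autosomes. In each replicate the first bin was above every bin beyond 1000 bp, which reached at most 3.62 on X and 3.87 on the autosomes. The X value with replicate 2 alone was less than the pooled one by over 1.5 times.

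Annotated tRNA pseudogenes, copies of tRNA genes that are no longer counted as functional, had no such rise in the first bin. Of the 209 nuclear tRNA pseudogenes in RefSeq, 202 lay over 1000 bp from any tRNA gene. Their first 100 bp from the 5′ end held 2.48 summits per 100 genes, from only 5 summits, against a mean of 2.50 beyond 1000 bp. With as many regions from replicate 1 alone it was 3.47 against 2.45, from 7 summits. With replicate 2 alone it was 1.98 against 2.33, from 4 summits. A summit lay within 100 bp of 138 of 612 tRNA genes (22.5%), against 20.7% of the 46890 annotated nuclear genes of any kind, so the tRNA share was near that of all genes. By chromosome it was 26.1% of tRNA genes and 23.8% of all genes on X, and 19.6% of tRNA genes and 20.2% of all genes on the autosomes. Protein-coding genes, with a median length of 2027 bp, had a summit that near in 36.6%. Of the 202 pseudogenes 18 did (8.91%). Windows of the gene's own length centred 5000 bp upstream and downstream had one in 4.90% and 4.74%. Other short RNA genes had one in 15.9% (snoRNA), 16.3% (snRNA), 6.90% (miRNA), 6.45% (piRNA) and 10.1% (ncRNA). These shares are descriptions, and the difference between classes was not tested. How reads matching several places were placed is unknown here, and what part that had in the difference between genes and pseudogenes was not tested.

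**Figure D2:**
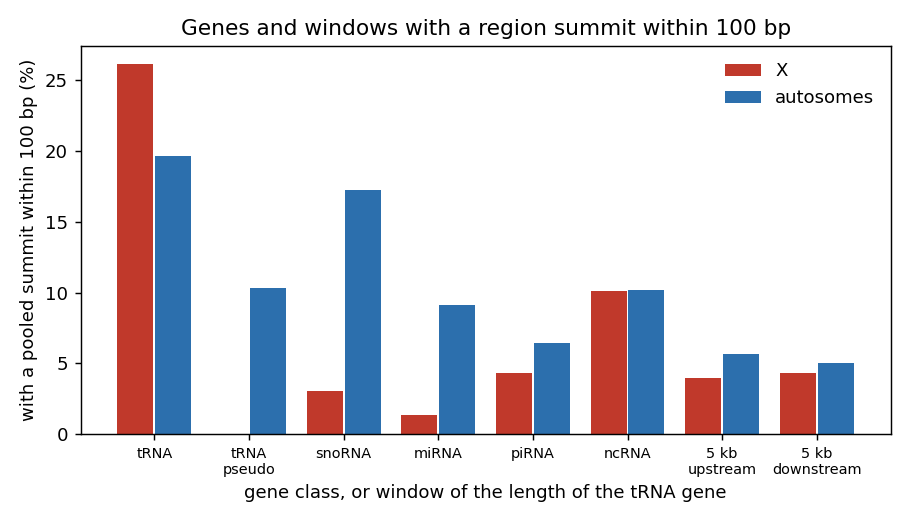
Share of genes, or of windows of tRNA gene length, with a pooled summit within 100 bp, on X and on the autosomes. Drawn are tRNA genes, tRNA pseudogenes over 1000 bp from a tRNA gene, and snoRNA, miRNA, piRNA and ncRNA genes. Windows centred 5000 bp to either side of the tRNA genes are drawn as well. The tRNA bars reach 26.1% on X and 19.6% on the autosomes, and no X pseudogene among 27 has a summit that near. All annotated genes together, which are not drawn, had 23.8% on X and 20.2% on the autosomes. The snRNA genes, also not drawn, had a summit that near at 1 of 3 on X and at 15.9% on the autosomes.

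Within 500 bp, too, the share of tRNA genes was near that of all genes. A region was present at 212 of 612 (34.6%), while 35.8% of the 46890 annotated nuclear genes of any kind had one that near. Median gene length was 72 bp for tRNA genes and 196 bp for all genes. The 5000 bp windows had one in 21.6% upstream and 17.8% downstream, and pseudogenes in 23.3%. The bases within 500 bp of a tRNA gene make up 0.571% of the nuclear genome and held 0.970% of the pooled regions, a ratio of 1.70.

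The X chromosome carries 276 of the 612 nuclear tRNA genes (45.1%), and 110 of these had a region (39.9%), against 102 of 336 on the autosomes (30.4%). The odds ratio was 1.52 with an exact 95% interval of 1.07 to 2.15. Fisher's exact test, two-sided, gave p = 0.0168, and after adjustment over 4 comparisons of X with the autosomes p was 0.067, which did not pass 0.05. With only the stronger 50% of pooled regions the odds ratio was 1.66 and passed (exact test, adjusted p = 0.0291). In the replicates' own lists, 132 X genes (47.8%) and 138 autosomal genes (41.1%) had a region in replicate 1, and 137 X genes (49.6%) and 132 autosomal genes (39.3%) in replicate 2. X was thus the higher in both, and in the pooled list the autosomes ran from 24.4% on V to 38.03% on IV. Each replicate list holds 29974 nuclear regions against 20201 in the pooled one. Shares over all genes on X and the autosomes were not taken with the replicate lists.

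Over all annotated genes the share with a region within 500 bp was 37.6% on X and 35.55% on the autosomes, and over protein-coding genes 50.5% on X and 47.6% on the autosomes. In windows centred 5000 bp upstream, a region was found at 16.7% on X and 25.6% on the autosomes, and in those downstream at 17.8% on X and 17.9% on the autosomes. Among pseudogenes away from tRNA genes it was 2 of 27 (7.41%) on X and 45 of 175 (25.7%) on the autosomes. The stretches within 500 bp of tRNA genes made up 1.38% of X and held 2.81% of its regions, a ratio of 2.045, against 0.398% and 0.596% on the autosomes, a ratio of 1.498. None of these differences was tested.

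The tRNA regions with the highest scores were on X. In all, 9 of the 196 (4.59%) were in the authors' thresholded set of reproducible peaks, against 0.931% of all pooled nuclear regions. All 9 were among the 96 on X (9.38%), and 0 of the 100 on the autosomes was in the set, which allows a share of up to 3%. Other regions were in the set at 1.15% on X and 0.845% on the autosomes. Of the 47 thresholded peaks on X, 9 were at a tRNA gene (19.1%, 95% Wilson interval 10.4 to 32.5), against 0 of 141 on the autosomes, which allows up to 2.13%. The intervals and limits cover counting error only. The highest autosomal member scored 30.4, close below the lowest nuclear peak of the thresholded set at 32.9. All tRNA regions that scored above that peak were in the set, so membership here followed the pooled score and is not separate from it.

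**Figure D3:**
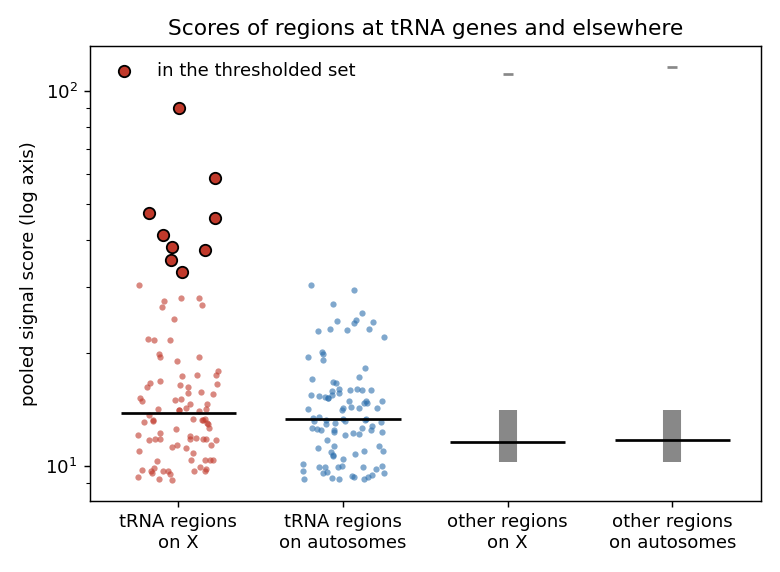
Pooled signal scores on a log axis for the 96 tRNA regions on X, the 100 on the autosomes, and other regions on X and the autosomes; points are regions, black-edged points are in the thresholded set, horizontal lines are medians, grey bars span the 25th to 75th percentile and grey dashes mark the highest other region. All 9 black-edged points are on X, from 33.0 to 90.4, and the autosomal points end at 30.4.

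Away from this top end, the scores of X and autosomal tRNA regions overlapped widely. The median was 13.8 on X and 13.3 on the autosomes, and the 75th percentiles were 17.6 and 15.95. Other regions had medians of 11.6 on X and 11.7 on the autosomes. Calling a region strong when its score was in the highest 25% of all nuclear regions, 45 of 96 on X (46.9%) and 46 of 100 on the autosomes (46%) were strong, against 24.8% of the regions away from tRNA genes. The odds ratio of X to the autosomes was 1.04 (95% interval 0.568 to 1.89, Fisher's exact test, adjusted p = 1). Among other regions it was 0.991, and a z test of the difference between these log odds ratios did not pass (n = 20201 regions, p = 0.877).

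With the highest 10% called strong, the odds ratio was 1.78 (28.1% on X, 18% on the autosomes, Fisher's exact test, adjusted p = 0.168), and outside protein-coding promoters 1.64 (adjusted p = 0.235 by the exact test). The comparison also rests on which library is used. In the list of replicate 1, 59 of 124 X members (47.6%) and 49 of 144 autosomal members (34.0%) were in the highest 25%. In that of replicate 2 they were 44 of 129 on X (34.1%) and 50 of 135 on the autosomes (37.04%). With lists as long as the pooled one, replicate 1 alone gave an odds ratio of 1.98 (Fisher's exact test, adjusted p = 0.0431) and replicate 2 alone 0.663 (adjusted p = 0.299), in the opposite direction.

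Strong regions were a smaller share beyond 100 bp on both kinds of chromosome, which was not tested. The median and the largest width of the tRNA regions were both 376 bp, and some regions at the same gene overlapped. At C04E7.t1 the summit inside the gene scored 26.6 and that of an overlapping region 147 bp away 9.72. At R04A9.t1 it was the other way, with 12.9 inside and 33.0 at 165 bp. Each was counted by its own distance, and what part such pairs had in the shares was not tested. Among regions with the summit inside the gene 30 of 59 were strong (50.8%), among those 1 to 100 bp away 43 of 75 (57.3%), and among those farther away 18 of 62 (29.03%). On X these shares were 55.9%, 57.1% and 22.2%, and on the autosomes 44%, 57.5% and 34.3%. The summit was within 100 bp in 69 of 96 on X (71.9%) and 65 of 100 on the autosomes (65%), an odds ratio of 1.37 (0.719 to 2.64, Fisher's exact test, adjusted p = 0.476).

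Fewer than 50% of the tRNA regions were in the lists of both replicates. The pooled summit lay in a region of both replicate lists for 80 of the 196 (40.8%), against 25.3% of all pooled nuclear regions. On X it was 45 of 96 (46.9%) and on the autosomes 35 of 100 (35%), an odds ratio of 1.63 (0.887 to 3.03, Fisher's exact test, adjusted p = 0.22). With each replicate list cut to the length of the pooled one it was 29.2% on X and 26% on the autosomes, an odds ratio of 1.17 (Fisher's exact test, adjusted p = 0.847). The share over all regions was not taken with the cut lists. With the full lists, replicate 1 held 138 of the 196 (70.4%) and replicate 2 held 130 (66.3%), and 8 were in neither. Regions away from tRNA genes were in replicate 1 at 60.7% and in replicate 2 at 52.4%, and 2408 of those 20005 were in neither. Members in both lists had median scores in replicate 1 of 9.88 on X and 8.22 on the autosomes, and in replicate 2 of 7.72 on X and 7.24 on the autosomes. A replicate region could hold more than 1 pooled summit, as at T14F9.t1, so the 80 do not all rest on separate replicate regions.

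The 9 members of the thresholded set are given one by one, with the score and, because the lists have different scales, the rank among the 29974 nuclear regions of each replicate. The highest lay by C18A11.t2 (chrX:8036685-8036757), an arginine tRNA gene between protein-coding genes, and scored 90.4 pooled (rank 9), 62.5 in replicate 1 (rank 2) and 28.75 in replicate 2 (rank 27). Its summit at 8036417 was 268 bp beyond the tRNA gene. The nearest protein-coding 5′ end was that of xol-1, a master gene of worm sex, with the summit at -4896 bp, upstream of it. Of the 9 summits it was the farthest from a tRNA gene. M02F4.t1 (chrX:3036164-3036235), a glycine tRNA gene, had its summit 49 bp upstream and scored 58.6, with 31.5 in replicate 1 (rank 44) and 27.8 in replicate 2 (rank 29). F46G11.t2 (chrX:5801211-5801282), for proline, held the summit inside the gene and scored 47.2, with 30.4 in replicate 1 (rank 47) and 9.94 in replicate 2 (rank 1931). That replicate 2 region also held the summit of a weaker member, by F46G11.t1, with 13.0 pooled. The ranks of M02F4.t1 lay close together, whereas F46G11.t2 was nearer the top in replicate 1.

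F41D9.t3 (chrX:8404499-8404571), an asparagine tRNA gene in an intron of sulp-3, a gene of the sulfate permease family on the opposite strand, scored 45.9, with 25.25 (rank 85) in replicate 1 and 17.35 (rank 165) in replicate 2. C53C7.t2 (chrX:13046366-13046447), for serine, scored 41.3 pooled and 32.7 in replicate 1 (rank 34), and no region of replicate 2 held its summit. C04A11.t1 (chrX:13665555-13665673), for leucine and the sole copy of its sequence, scored 38.4, with 17.3 (rank 305) in replicate 1 and 16.5 (rank 188) in replicate 2. These 3 summits lay upstream of the gene, at 91, 53 and 26 bp. Apart from C04A11.t1, the genes of the thresholded members have a sequence carried by 3 (C53C7.t2) to 29 (M02F4.t1) tRNA genes. The summits by M02F4.t1, F46G11.t2 and C53C7.t2 each had 2 tRNA genes within 500 bp.

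C28G1.t1 (chrX:8836113-8836184), for glutamate, lies in an exon of C28G1.2 and scored 37.7, with 10.9 (rank 2541) in replicate 1 and 23.7 (rank 50) in replicate 2. Its summit was inside the tRNA gene and also 121 bp downstream of the 5′ end of C28G1.2. It thus lay in a protein-coding promoter window (1500 bp upstream to 500 bp downstream of a 5′ end), unlike the other summits of the set. R11.t1 (chrX:16209769-16209852), for tyrosine, scored 35.5, with 9.88 (rank 3902) in replicate 1 and 22.8 (rank 59) in replicate 2. R04A9.t1 (chrX:410391-410462), for glutamine, in an intron of ZK1193.2 on the opposite strand, scored 33.0, with 15.4 (rank 249) in replicate 2 and no region of replicate 1 holding that summit. Another region at R04A9.t1, with its summit inside the gene at 410431, scored 12.9 pooled and 16.5 in replicate 1 (rank 366), so both replicates had a region at this gene. At C28G1.t1 and R11.t1 the rank was nearer the top in replicate 2. Of the 9 pooled summits, 7 were in regions of both lists and 1 in each list alone. The next X member, F52H2.t1, an aspartate tRNA gene in an intron of the amino acid transporter gene aat-3, scored 30.3 and was not in the set, with 16.03 in replicate 1 (rank 408) and 13.66 in replicate 2 (rank 415).

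**Figure D4:**
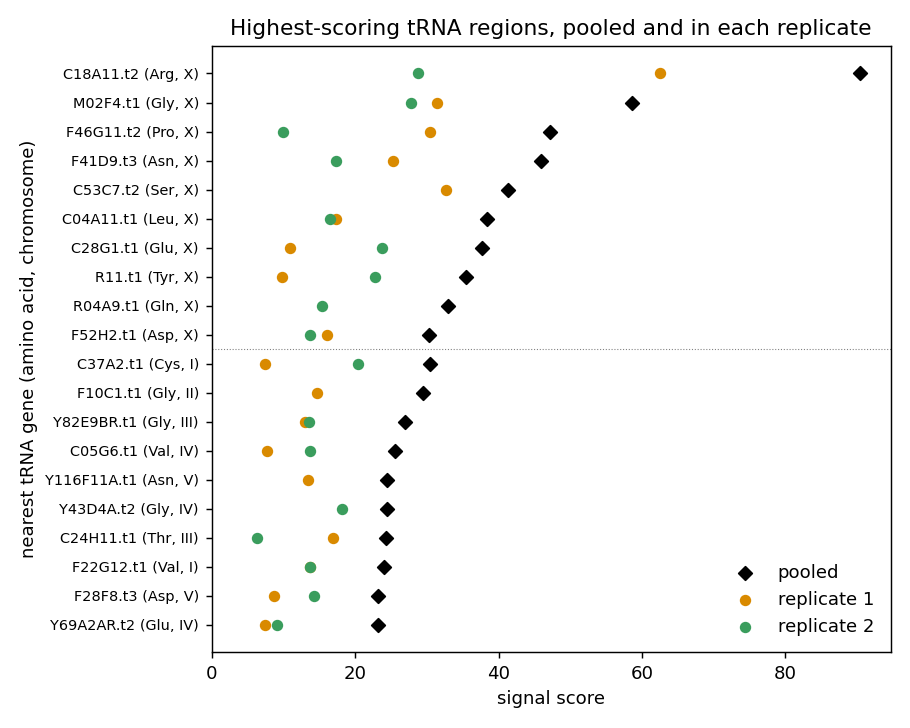
Pooled, replicate 1 and replicate 2 signal scores of the 10 highest tRNA regions on X (above the dotted line) and the 10 highest on the autosomes (below it), each named by its nearest tRNA gene; a missing point means that no region of that replicate held the summit, and markers lie on top of each other at F22G12.t1. X members run from 30.3 to 90.4 pooled, autosomal ones from 23.1 to 30.4, and in several rows the replicates are far apart.

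The 10 highest autosomal members were weaker and spread over all 5 autosomes. C37A2.t1, a cysteine tRNA gene in an intron of the cyclin E gene cye-1, scored 30.4 pooled, with 7.48 in replicate 1 and 20.4 in replicate 2. F10C1.t1, for glycine, scored 29.4, with 14.8 in replicate 1 and no region of replicate 2 holding the summit. Y82E9BR.t1, also for glycine, in an intron of lelo-2 on the opposite strand, scored 27.0, with 13.0 and 13.5. C37A2.t1 ranked 10701 in replicate 1 and 87 in replicate 2, and Y82E9BR.t1 ranked 1084 and 424.

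The others scored from 23.1 to 25.5. They were C05G6.t1 (valine, in an intron of C18H7.1), Y116F11A.t1 (asparagine), Y43D4A.t2 (glycine), C24H11.t1 (threonine), F22G12.t1 (valine), F28F8.t3 (aspartate, in an intron of the acetylcholine receptor subunit gene acr-18) and Y69A2AR.t2 (glutamate, in an exon of the spindle checkpoint gene mdf-2). F22G12.t1 had nearly equal scores of 13.71 and 13.67 in replicates 1 and 2. The summit of Y116F11A.t1 was held by a region of replicate 1 only, with 13.5, and that of Y43D4A.t2 by a region of replicate 2 only, with 18.2. The summit lay inside the tRNA gene in 5 of these 10. The summits at F10C1.t1, Y43D4A.t2, C24H11.t1, F22G12.t1 and Y69A2AR.t2 lay in a protein-coding promoter window. Over all tRNA regions 28.1% of summits lay in such a window, against 35.1% of other regions.

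By amino acid, genes with a region were found in every family of at least 8 genes. RefSeq named the amino acid for all but 5 of the 612 genes. Cysteine tRNA genes had the highest share with 8 of 13 (61.5%, 95% Wilson interval 35.5 to 82.3), then alanine with 19 of 34 (55.9%, 39.5 to 71.1) and aspartate with 12 of 27 (44.4%, 27.6 to 62.7). The lowest were tryptophan with 2 of 12 (16.7%, 4.70 to 44.8), tyrosine with 4 of 19 (21.1%, 8.51 to 43.3) and phenylalanine with 3 of 14 (21.4%, 7.57 to 47.6). The intervals of cysteine and tryptophan overlap, and no family was tested against the others.

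**Figure D5:**
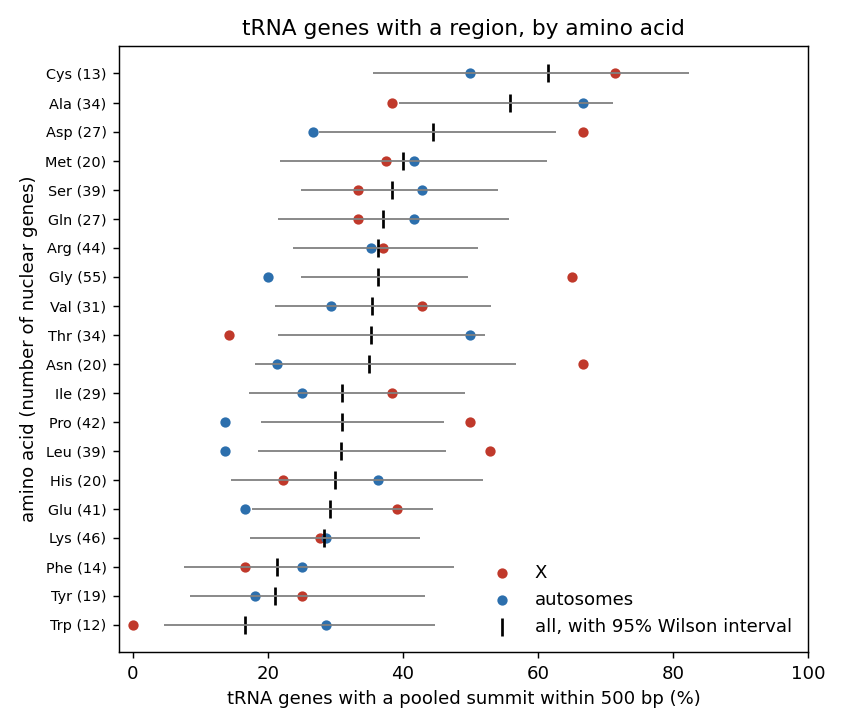
Share of nuclear tRNA genes with a pooled summit within 500 bp for each amino acid with at least 8 genes, with the number of genes in brackets; red points are X genes, blue points autosomal genes, and black ticks with grey lines all genes with their 95% Wilson interval. Cysteine is highest at 61.5% and tryptophan lowest at 16.7%, and the X point lies right of the autosomal point in some families and left in others.

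X and the autosomes differed in both directions between families. Glycine genes had a region in 13 of 20 on X (65%) and 7 of 35 on the autosomes (20%), proline genes in 10 of 20 on X (50%) and 3 of 22 on the autosomes (13.6%), and leucine genes in 9 of 17 on X (52.9%) and 3 of 22 on the autosomes (13.6%). Threonine genes went the other way, with 2 of 14 on X (14.3%) and 10 of 20 on the autosomes (50%), as did alanine genes, with 5 of 13 on X (38.5%) and 14 of 21 on the autosomes (66.7%). These 5 were picked after their values were seen and carry no test.

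None of 6 features passed a test between tRNA genes with a region and those without one (Fisher's exact test, two-sided, adjusted over the 6 features, smallest adjusted p = 0.171). Of genes with a region 50% overlapped the span of a protein-coding gene, against 46.75% of those without (exact test, adjusted p = 0.446). A protein-coding promoter window, from 1500 bp upstream to 500 bp downstream of a 5′ end, held 27.4% of genes with a region and 35% of those without (exact test, adjusted p = 0.171). Another tRNA gene lay within 1000 bp of 42.5% of genes with a region and 36.5% of those without (exact test, adjusted p = 0.233). An identical sequence was present at another nuclear tRNA gene for 79.7% of genes with a region and 75% of those without (exact test, adjusted p = 0.233). These 4 describe where the gene lies and how often it is repeated.

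The strict form of the B box and the terminator did not pass either. The strict B box core GTTCGANTC was in 42.0% of genes with a region and 49.2% of those without (odds ratio 0.746, 0.525 to 1.06, exact test, adjusted p = 0.179). The wider core GTTCNANNC, looked at afterwards, was in 94.8% of genes with a region and 96.5% of those without, and an A box start of the form TNGNNNAG was in the first 25 bases of 84.9% with a region and 82.75% without. Because most genes carried the wider core, the strict core separates forms of the B box, not genes with and without one. A run of 4 T within 25 bp after the gene followed 100% of genes with a region and 98% of those without (exact test, adjusted p = 0.171). As 604 of the 612 genes had this run, the comparison had little room to differ. At unadjusted p under 0.05 none of the 6 passed over all genes. On the autosomes alone the strict B box core was in 36.3% of genes with a region and 50.9% of those without (exact p = 0.0172, adjusted p = 0.103), and on X in 47.3% with a region and 46.99% without (exact test, adjusted p = 1). A z test of the difference between these log odds ratios did not pass (n = 612 genes, adjusted p = 0.473).

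The base composition under the summits is given as a description, because choosing summits by nearness to tRNA genes fixes much of it. Within 50 bp of the summit GC content was 41.7% ± 10.4 (SD over 96 regions) on X and 43.3% ± 10.99 (SD over 100) on the autosomes, against 34.2% ± 9.03 at other X regions and 33.4% ± 9.22 at other autosomal regions. It was 51.02% ± 5.27 for the 59 summits inside a gene and 35.6% ± 9.45 for the 62 over 100 bp away. The strict B box core, on either strand, was in 14.8% of tRNA windows and 0.195% of other windows, and in 45.8% of the windows with the summit inside a tRNA gene. As 46.7% of tRNA genes carry that core, this difference comes with the choice of windows. The core AAAGTT known for MYT1-family zinc fingers was in 32 of 196 (16.3%) on either strand, against 20.1% of other windows. It was in 0 of the 9 thresholded members, which are too few to tell 0 from a share like that of other windows. GC content differed between these windows, and its part in the shares was not tested.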

How the data were processed

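ZTF-11 chromatin was immunoprecipitated and sequenced in 2 biological replicates. Text notes deposited beside the files record that regions were called for each replicate and for both pooled against 1 control, and that the thresholded set derives from these lists. They name no aligner, caller or setting. The deposited score is the authors' signal value per region, used to rank and describe regions within a list. Depth is unknown. The ce11 lists were set on WBcel235 (Ensembl release 115, RefSeq sequence); no region passed a chromosome end. The ce10 lists were not used.

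Distances run from the summit to the nearest base of the gene. The 612 tRNA genes all matched RefSeq by WormBase ID. Tests of shares were Fisher's exact tests (conditional odds ratios, exact 95% intervals), adjusted by Benjamini and Hochberg over 4 comparisons of X with the autosomes and over 6 gene features; genes and regions that share sequence or position are not independent. Steps were tested on simulated data. Named were the 10 highest members on X and on the autosomes, the thresholded members, and the 3 highest and 3 lowest families of at least 8 genes. Sequences are shown for some of the named regions, none with a copy of its tRNA gene on the chromosome left out of the sequences. All counts and tests cover every nuclear chromosome. Members and tests were chosen with earlier results of these data known. Alternatives covered the distance, each replicate alone, clusters and copies of genes, promoters and stronger regions. Tests ran in scipy 1.17.1 under Python 3.11.15, tables in pandas 2.3.3 with numpy 2.4.6, and plots in matplotlib 3.10.9.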

Additional observations from a re-analysis of the deposited data

How the results depend on the processing

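The higher share of X tRNA genes with a region kept its direction in all alternatives run, with odds ratios from 1.21 to 1.66, and passed only with the stronger 50% of regions (1.66); without replicate 1 it was 1.49 and without replicate 2 1.33. The odds ratio of strong regions was 0.663 without replicate 1 and 1.98 without replicate 2, and the cause was not tested. Of the gene features, given as percentage points with a region minus without, overlap with a protein-coding gene was -10.4 without replicate 1 and 5.05 without replicate 2. A neighbouring tRNA gene was -0.264 with summits within 250 bp, -4.88 within 100 bp, -4.44 without replicate 1 and 7.69 without replicate 2, and passed at 11.9 with 1 gene per cluster. With 1 gene per distinct sequence, identical copies passed at 41.7 and the terminator at 6.30. Both counts give a cluster or family a region when any member has one, so larger ones have more chances. The strict B box core passed at -12.5 with the stronger 50% of regions. The cause of the other changes was not tested. The median score percentile of X members was 60.2 to 73.8 with 1 replicate left out; that of autosomal members was 58.4 to 63.8, and 75.5 within 100 bp and 64.4 outside promoters. With 1 replicate left out, the first 100 bp from the 5′ end held 6.16 to 9.06 summits per 100 genes on X. On the autosomes they held 5.95 to 8.33. This setting was chosen after seeing the data, as was the wider B box core, found in 587 genes. The other values kept their direction and their side of the threshold. Unknown depth sets no limit that can be stated for a gene without a region.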

Other observations

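The 612 genes had 200 distinct sequences, of which 143 occurred once and the largest family had 29 identical genes. Among genes in families of over 15 identical genes 34 of 71 on X (47.9%) had a region, against 18 of 85 on the autosomes (21.2%), and with no copy 18 of 57 on X (31.6%) and 25 of 86 on the autosomes (29.1%). With 2 to 5 identical genes it was 45.2% on X and 29.4% on the autosomes, and with 6 to 15, the largest class, 37.6% on X and 38.6% on the autosomes, so the shares followed no order with family size. Of the 29 tRNA genes with an annotated intron 8 had a region. Where a tRNA gene lay within a protein-coding gene, 57 with a region were on the host's strand and 49 on the opposite one, against 113 and 74 of those without. These groupings were made after the data were seen and were not tested.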
